A study of Mus musculus with 4 samples.

Results

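The genes described here encode the classical families of axon guidance cues and receptors: semaphorins with their plexin and neuropilin receptors, ephrins with their Eph receptors, Slits with their Robo receptors, and netrins with the receptors of the UNC5 and DCC families. They were chosen by gene symbol, as every gene of the table named Sema, Plxn, Eph, Efn, Slit, Robo, Ntn or Unc5 with its class letter or number, plus Nrp1, Nrp2, Dcc and Neo1, except for 1 Eph receptor that the rule leaves out. This gave 69 of the 23361 genes measured. RNA was sequenced from cultured mammary tumour cells of the Chaos3 mouse (C3HeB/FeJ per the labels), whose mutation in the helicase gene Mcm4 makes it prone to such tumours. The High group held 2 libraries, 1 from each of the clones AB-C1 and AB-C2, in which a lentiviral vector was used to over-express Arid1a, the gene of a chromatin remodelling protein of BAF complexes. The Low group held 2 libraries of 23116 MT, the parental tumour line with low Arid1a. Both groups thus carry the Chaos3 background. Each High library is a single clone that received the vector, and the Low libraries are of the parental line. Effects of Arid1a, of the vector and of picking clones therefore cannot be told apart between the groups. No library of an empty vector was analysed here.

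Guidance cues are secreted or membrane-bound proteins that steer growing axons by attraction or repulsion, and the same proteins position cells and vessels outside the nervous system. Semaphorins signal through plexins, which act on small GTPases and the cytoskeleton, and the secreted class 3 semaphorins mostly need a neuropilin as co-receptor. Ephrins are held at the membrane, those of the A class by a lipid anchor and those of the B class by a transmembrane segment, so that signalling with Eph receptor kinases requires contact between cells and can run in both directions. Slits are secreted ligands of Robo receptors. Netrins bind DCC and neogenin (Neo1), classically for attraction, and UNC5 receptors for repulsion. In the mammary gland, Slit2 with Robo1 and netrin-1 with neogenin have been described as cues that hold the bilayered duct together.

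The libraries held 16523077 and 24307251 fragments (High) and 13889858 and 28110812 fragments (Low), of which the guidance genes took 0.332% and 0.289% (High) and 0.278% and 0.275% (Low). The counted Arid1a gene went against the labels: it stood at 49.8 and 58.3 CPM in the libraries labelled High, against 82.2 and 94.2 CPM in those labelled Low (edgeR quasi-likelihood test, adjusted p = 0.165). CPM are fragments relative to library size, with TMM factors between libraries. Whether transcripts of the vector were counted as mouse Arid1a is not known, and every direction below is that of the libraries labelled High relative to those labelled Low. The cells expressed some keratins in all libraries, with Krt8 at 224 and 879 CPM (High) and 647 and 443 CPM (Low). Not every keratin was: Krt5 was at 0 and 1.02 CPM (High) and 0.735 and 0.220 CPM (Low). The 10 endothelial markers, of a cell type known for semaphorin and plexin signalling, summed to 0.701 and 1.51 CPM (High) and 1.32 and 1.17 CPM (Low), and Emcn was at 0 throughout. Among 10 neuronal markers, Elavl4 was at 0, Snap25 did not exceed 0.0732 CPM, which left most of their sum to Tubb3 and Map2, and Tubb3 was at 8.70 and 38.7 CPM (High) and 12.5 and 10.6 CPM (Low). The 10 fibroblast markers summed to 1225 and 473 CPM (High) and 6821 and 6187 CPM (Low), with 1 of the 8 tested called, lower (Fap), and Lum at 0 in every library. The members did not all run with the sum: Dcn was at 195 and 19.6 CPM (High) and 4.19 and 5.45 CPM (Low), and for Pdgfra the High libraries lay on opposite sides of the Low pair. Summed CPM were 863 and 2194 (High) and 1478 and 1084 (Low) for 10 luminal markers (0 called). For 10 basal markers they were 1500 and 2972 (High) and 2449 and 1974 (Low). Of these markers, 2 were called higher (Cdh3 and Itga6) and 2 lower (Acta2 and Egfr). Acta2 was at 22.7 and 8.63 CPM (High) and 1320 and 1153 CPM (Low). Krt14, not called, was at 1271 and 2647 CPM (High) and 973 and 614 CPM (Low). The 10 Schwann cell markers summed to 229 and 69.4 (High) and 78.3 and 85.8 (Low), with Pmp22 the highest and Foxd3 at 0. Of the 6 tested, 5 had a log2 fold change above 0 and 1 below (0 called). Ngfr was at 58.0 and 16.3 CPM (High) and 2.06 and 1.21 CPM (Low). The 9 haematopoietic markers summed to 22.2 and 28.2 (High) and 9.84 and 9.84 (Low), with Cd3e and Tyrobp at 0. Csf1r, not called, made up most of this sum at 20.8 and 27.4 CPM (High) and 8.67 and 8.67 CPM (Low). Ptprc did not exceed 0.293 CPM. The part of these markers in the results below was not tested. In bulk RNA, fewer cells of a type and less RNA per cell cannot be told apart.

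A few guidance genes were called by edgeR, 5 lower and 1 higher in the libraries labelled High. The repulsive ligands Slit2 and Slit3, the netrin ligand Ntn1, the netrin receptor Unc5b and the semaphorin receptor Plxnd1 fell in the libraries labelled High, and the transmembrane semaphorin Sema4f rose. Of the 69 genes, 53 passed the filter on low counts and were tested. At an adjusted p under 0.05 by edgeR's quasi-likelihood test, 1 of these 53 was called higher and 5 were called lower, where over all 12987 genes tested 1.14% were called higher and 1.33% lower. Of the 53, 10 were higher and 10 lower at an unadjusted p under 0.05, the called genes included, which 9.92% (higher) and 8.16% (lower) of all tested genes reached. The median log2 fold change of the 53 was 0.13, beside 0.03 over all genes tested. An absolute log2 fold change over 1 was seen in 24 of the 53 (45.3%), and in 17.1% of all tested genes. DESeq2 called all 6 with 10 further guidance genes, 8 higher and 8 lower in all, where it called 3.81% of its 16680 genes higher and 3.15% lower. Limma-voom called the same 6, with 0.932% of all tested genes higher and 1.54% lower. These calls rest on both Low libraries: with Low library 1 left out edgeR called 0 genes of any kind (970 had an unadjusted p under 0.05, among them 14 guidance genes), and likewise with Low library 2 left out (800, among them 11 guidance genes). Without High library 1 there were 23 guidance genes called and without High library 2 there were 26, the 6 among them each time, in fits that called 2193 of 13459 genes and 2475 of 13273 genes in all.

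**Figure D1:**
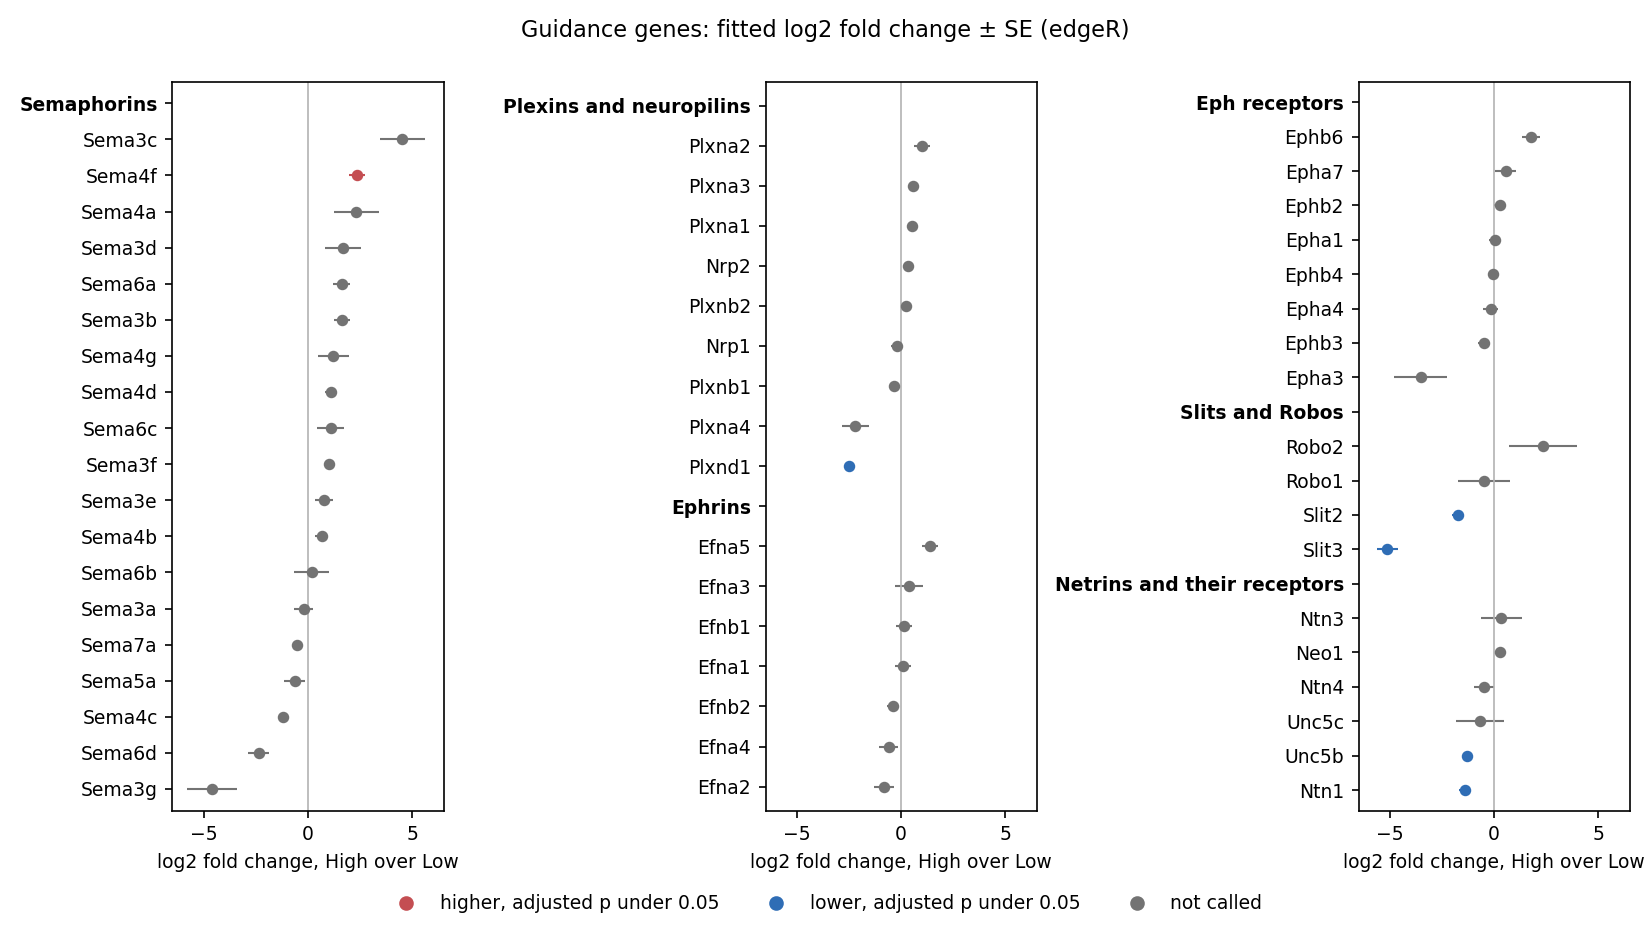
Fitted log2 fold change of the libraries labelled High over those labelled Low, with its standard error as a horizontal bar, for the 53 tested guidance genes by family. The 5 genes called lower lie left of 0 and Sema4f, the 1 called higher, lies to the right.

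Among the 16 genes that were not tested, 8 had no fragment in any library: Dcc, Efnb3, Epha6, Epha10, Ephb1, Ntn5, Robo3 and Robo4. Another 7 had at most 7 fragments in all (Epha5, Epha8, Plxnc1, Sema5b, Slit1, Unc5a and Unc5d). The last, Plxnb3, a receptor for the semaphorin Sema5a, had 7 and 30 fragments in the libraries labelled High and 0 and 2 in those labelled Low. The netrin receptor Dcc, the endothelial Robo4 and the neuronal Robo3 were therefore without signal at this depth. A count of 0 limits the level only to under 3 fragments per library.

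Slit ligands showed the widest called difference. Slit3 (ENSMUSG00000056427.10, chromosome 11, 35121224 to 35708507, plus strand, mm10) had 5 and 9 fragments in the libraries labelled High and 156 and 328 in those labelled Low, or 0.292 and 0.366 CPM (High) and 11.5 and 12 CPM (Low). The groups did not overlap and the duplicates of each lay close together. Its log2 fold change was -5.12 ± 0.52 (SE), 34.7-fold lower (edgeR, adjusted p = 0.00485). Slit2 (ENSMUSG00000031558.15, chromosome 5, 47983138 to 48307733, plus strand) stood at 17.3 and 17.7 CPM (High), against 49.7 and 68.3 CPM (Low). It fell 3.37-fold, with a log2 fold change of -1.75 ± 0.27 (SE) and adjusted p = 0.0218, and was also called in 8 of the 13 alternatives, with adjusted p from 1.37e-06 to 0.647 over all of them; limma on FPKM did not call it. Per transcript length, Slit2 led the Slits, with 2.19 and 2.25 FPKM (High) and 6.34 and 8.71 FPKM (Low).

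The Robo receptors were not called. Robo1, the best known Slit receptor, was at 16.8 CPM in High library 1 and 1.26 CPM in High library 2, with 10.7 and 14.4 CPM in the Low libraries between them. Robo2, a close relative of Robo1, was at 10.05 CPM and 0.244 CPM in the same libraries, against 1.10 and 0.915 CPM (Low). For both receptors the High libraries thus lay on opposite sides of the Low pair, 13.3-fold apart for Robo1 and 41.1-fold apart for Robo2, and neither was called (edgeR, adjusted p = 0.889 for Robo1 and 0.530 for Robo2). The genes are neighbours on chromosome 16, 846 kb apart (mm10). The log2 fold change of Robo1 was -3.31 without High library 1 and 0.41 without High library 2. That of Robo2 was -2.00 without High library 1 and 3.32 without High library 2. Each of these fits leaves a lone High library, whose spread is taken from the Low pair. The summed level of the family was 5.76 and 2.53 FPKM (High) and 10.3 and 13.3 FPKM (Low).

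Netrin-1 and its receptor Unc5b both fell. Ntn1 (ENSMUSG00000020902.12, chromosome 11, 68209364 to 68400823, minus strand, mm10), the prototype netrin, was at 19.0 and 14.7 CPM in the libraries labelled High and at 46.3 and 43.7 CPM in those labelled Low (326 and 362 fragments against 630 and 1195). Its log2 fold change was -1.41 ± 0.27 (SE), 2.67-fold lower (edgeR, adjusted p = 0.0415), a call that 7 of the 13 alternatives also made, their adjusted p lying between 4.73e-05 and 0.722. Unc5b (ENSMUSG00000020099.8, chromosome 10, 60762593 to 60831581, minus strand, mm10), a netrin receptor and dependence receptor, was at 171 and 175 CPM (High) and 452 and 402 CPM (Low), 2.47-fold lower (log2 fold change -1.30 ± 0.22, SE, adjusted p = 0.0285). Both High values lay below both Low values with narrow spread. Unc5b was the most abundant gene of the group per length, at 29.7 and 30.4 FPKM (High) and 79.2 and 70.5 FPKM (Low), which was 45.7% and 45.2% of the summed FPKM of the netrins and their receptors in the libraries labelled High and 68.1% and 63.8% in those labelled Low.

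Neogenin, Neo1, the other abundant receptor, was at 207 and 191 CPM (High) and 144 and 182 CPM (Low) and was not called (log2 fold change 0.29 ± 0.23, SE, adjusted p = 0.558). In High library 1 it stood level with Unc5b per length, at 28.7 FPKM beside 29.7 FPKM, where Low library 1 had 20.2 FPKM of Neo1 and 79.2 FPKM of Unc5b. Ntn4, a netrin related to laminin chains, spread within the groups: 6.31 and 16.9 CPM (High), against 18.6 and 14.1 CPM (Low). Unc5c was low throughout, at 2.04 and 0.122 CPM (High) and 1.40 and 2.01 CPM (Low), with the High libraries 16.7-fold apart. Ntn3 had at most 14 fragments in a library.

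Plxnd1, the plexin best known for its role in vessels and its ligand Sema3e, had the larger fold of the 2 receptors called. It was at 21.6 and 19.8 CPM in the libraries labelled High and at 119 and 112 CPM in those labelled Low (369 and 486 fragments against 1624 and 3075). The duplicates agreed within a ratio of 1.09 (High) and 1.06 (Low). The gene fell 5.61-fold, with log2 fold change -2.49 ± 0.23 (SE; edgeR, adjusted p = 0.00344). Its gene (ENSMUSG00000030123.15) lies on the minus strand of chromosome 6, 115954811 to 115995005 (mm10). Plxna4, a partner of the neuropilins, pointed the same way at 0.759 and 1.02 CPM (High) and 3.16 and 5.01 CPM (Low), without passing (adjusted p = 0.129). Plxnb2, a receptor of class 4 semaphorins, led the plexins and neuropilins per length at 50.7 and 75.8 FPKM (High) and 54.6 and 52.9 FPKM (Low).

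The remaining plexins and both neuropilins were not called. Plxna1 was at 335 and 314 CPM (High) and 219 and 233 CPM (Low) (log2 fold change 0.52 ± 0.21, SE, adjusted p = 0.254). Plxna2 stood at 54.3 and 26.3 CPM (High) and 17.3 and 22.4 CPM (Low), and Plxna3 at 41.0 and 41.2 CPM (High) and 28.4 and 27.7 CPM (Low). All 3 of these A-type plexins had both High libraries above both Low libraries, as did 25.9% of all tested genes. Nrp1, co-receptor of class 3 semaphorins and of VEGF, was at 203 and 121 CPM (High) and 168 and 199 CPM (Low), so that the High libraries lay on either side of the Low pair. Plxnb1, the receptor of Sema4d, was at 47.8 and 60.9 CPM (High) and 74.2 and 65.7 CPM (Low), and Nrp2 at 162 and 214 CPM (High) and 136 and 164 CPM (Low). Summed over plexins and neuropilins the level was 169 and 186 FPKM (High) and 163 and 172 FPKM (Low).

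**Figure D2:**
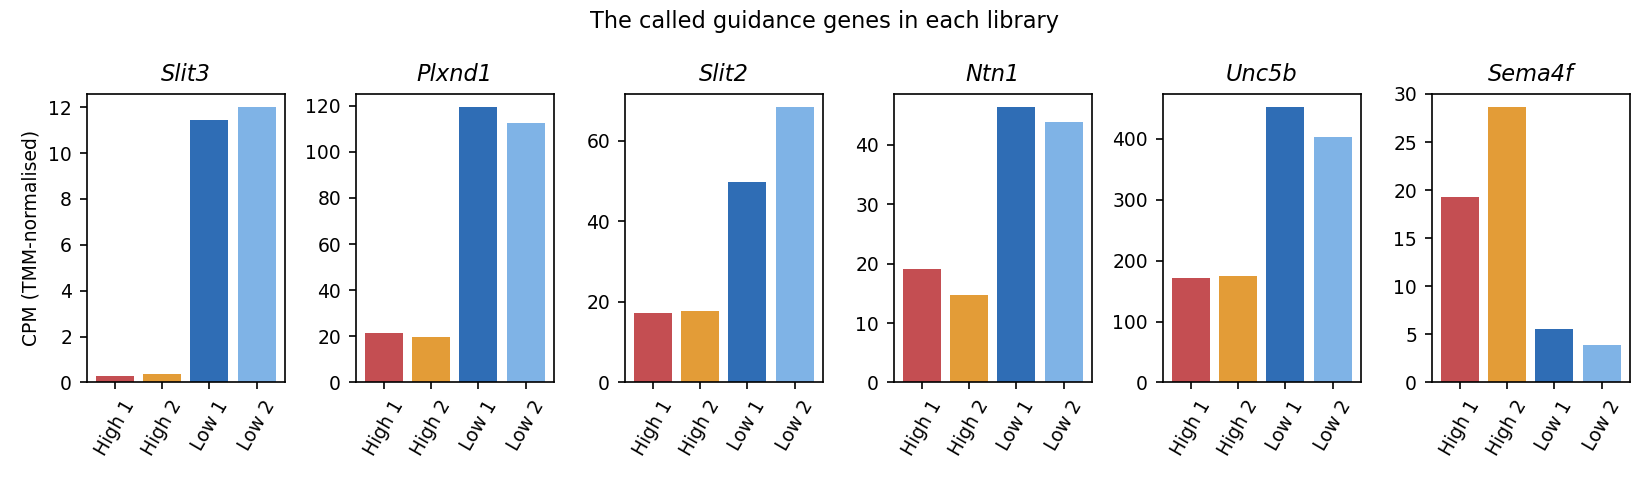
Bars give CPM of the 6 called guidance genes in each library, High libraries left of the Low libraries, each gene on its own axis starting at 0. Slit3, Plxnd1, Slit2, Ntn1 and Unc5b stand lower in both High libraries and Sema4f stands higher, at 19.3 and 28.6 CPM against 5.58 and 3.91 CPM.

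The promoter windows of the called genes are shown because these are the genes that passed edgeR's test. Sequences are RefSeq's for GRCm38.p6, from 250 bases before to 50 bases after an annotated start, written along the gene's strand. A window was found for 59 of the 69 genes and for 5 of the 6 called genes (Ntn1 is named only). Capitals mark GC boxes, GGGCGG or its reverse complement, and CCAAT boxes, CCAAT or its reverse complement, where no GC box overlaps a CCAAT box. The run of 10 capitals in Slit3 holds 2 GC boxes that overlap.
Slit2: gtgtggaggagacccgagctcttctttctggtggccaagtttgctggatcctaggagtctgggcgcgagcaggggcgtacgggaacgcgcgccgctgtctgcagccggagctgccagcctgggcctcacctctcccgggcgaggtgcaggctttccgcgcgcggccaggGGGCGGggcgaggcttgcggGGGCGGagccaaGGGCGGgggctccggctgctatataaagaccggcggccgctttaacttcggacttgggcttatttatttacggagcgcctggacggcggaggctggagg
Slit3: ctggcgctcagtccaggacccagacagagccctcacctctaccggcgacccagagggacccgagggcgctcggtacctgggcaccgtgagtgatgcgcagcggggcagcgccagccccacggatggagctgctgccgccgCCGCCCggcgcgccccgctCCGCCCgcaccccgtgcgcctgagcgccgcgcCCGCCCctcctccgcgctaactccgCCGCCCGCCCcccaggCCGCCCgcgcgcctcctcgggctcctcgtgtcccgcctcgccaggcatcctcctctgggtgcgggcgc
Unc5b: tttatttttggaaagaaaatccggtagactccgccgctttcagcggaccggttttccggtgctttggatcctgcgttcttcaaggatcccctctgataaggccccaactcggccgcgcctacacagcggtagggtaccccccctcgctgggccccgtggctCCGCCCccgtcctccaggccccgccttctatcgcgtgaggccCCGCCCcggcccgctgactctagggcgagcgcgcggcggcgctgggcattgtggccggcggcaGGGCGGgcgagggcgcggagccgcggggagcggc
Plxnd1: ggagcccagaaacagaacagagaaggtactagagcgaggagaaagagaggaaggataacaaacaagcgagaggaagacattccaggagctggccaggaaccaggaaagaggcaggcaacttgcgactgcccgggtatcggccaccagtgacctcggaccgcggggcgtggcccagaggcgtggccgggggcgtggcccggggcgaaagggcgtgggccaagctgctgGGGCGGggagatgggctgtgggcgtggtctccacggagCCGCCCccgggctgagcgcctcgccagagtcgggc
Sema4f: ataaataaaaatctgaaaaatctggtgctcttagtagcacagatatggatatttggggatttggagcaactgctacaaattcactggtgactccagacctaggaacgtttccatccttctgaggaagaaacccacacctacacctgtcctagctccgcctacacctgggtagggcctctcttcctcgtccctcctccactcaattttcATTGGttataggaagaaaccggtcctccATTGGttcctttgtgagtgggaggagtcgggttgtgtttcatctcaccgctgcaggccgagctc
The windows are chr5:47982905-47983204 (Slit2, plus strand), chr11:35121206-35121505 (Slit3, plus strand), chr10:60831532-60831831 (Unc5b, minus strand), chr6:115994956-115995255 (Plxnd1, minus strand) and chr6:82939720-82940019 (Sema4f, minus strand).

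Over the 75 windows of all guidance genes the median was 20 CpG dinucleotides. Slit2 had 30, Slit3 41, Unc5b 36 and Plxnd1 23, and Sema4f had 7, which is the median over all 32851 windows. Fewer CpG were present in 88.3% of all windows for Slit2, 96.5% for Slit3, 93.8% for Unc5b, 78.5% for Plxnd1 and 47.9% for Sema4f. Among guidance genes that edgeR did not call, the window of Sema3c had 42 CpG, that of Efna5 38 and that of Ephb6 34. That of Neo1 had 54, and the windows of Sema4d had 3, 3 and 2. Whether CpG number goes with direction was not tested. GC boxes numbered 3 in Slit2, 6 in Slit3, 3 in Unc5b and 2 in Plxnd1, and none was found in Sema4f, which had 2 CCAAT boxes in inverted orientation. A GC box was present in 35.7% of all windows and a CCAAT box in 37.4%, each searched on both strands. The AP-1 motif TGANTCA, present in 7.8% of all windows, was in none of the 5, and the TEAD core GGAATG, present in 14.7%, was in Plxnd1 alone. Such a match is a description of letters in a window. The table sums over the transcripts of a gene, so which start was in use is not known.

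Semaphorins, the ligands, formed the largest family, with 19 of 20 genes tested. Sema4f, a transmembrane class 4 semaphorin, rose 5.07-fold and was the only 1 of the 19 called. It stood at 19.3 and 28.6 CPM in the libraries labelled High (330 and 703 fragments) and 5.58 and 3.91 CPM in those labelled Low (76 and 107 fragments). The log2 fold change was 2.34 ± 0.38 (SE, edgeR, adjusted p = 0.0256), and the gene lies on the minus strand of chromosome 6, 82911885 to 82939769 (mm10, ENSMUSG00000000627.15). The median log2 fold change over the 19 was 1.01, with 13 above 0 and 6 below, beside 0.03 over all genes tested.

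Sema3c, a secreted class 3 semaphorin that signals through neuropilins, had the largest positive log2 fold change of the 53 tested guidance genes. It was at 632 CPM in High library 1 and 113 CPM in High library 2, against 13.2 and 19.0 CPM in the Low libraries (10812 and 2764 fragments against 180 and 520). Both High libraries lay far above both Low libraries, but they were 5.61-fold apart. The log2 fold change of 4.52 ± 1.09 (SE) was not called by edgeR (adjusted p = 0.184) or limma-voom (adjusted p = 0.244), and was called by DESeq2 (adjusted p = 0.00138). The value was 5.27 without High library 2 and 2.80 without High library 1. Per length, Sema3c made up 60.3% and 22.0% of the summed semaphorin FPKM in the libraries labelled High and 3.64% and 5.64% in those labelled Low.

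Several other semaphorins stood higher in both libraries labelled High without passing. Sema3f, a ligand of Nrp2, was at 74.2 and 84.4 CPM (High) and 42.8 and 36.2 CPM (Low), with adjusted p = 0.0757. Its neighbour Sema3b, 72.3 kb away on chromosome 9, was at 14.9 and 11.4 CPM (High) and 4.70 and 3.91 CPM (Low), with adjusted p = 0.0814. Sema4d, the ligand of plexin-B1, stood at 53.9 and 42.8 CPM (High) and 22.6 and 23.0 CPM (Low), and Sema6a, a transmembrane class 6 member, at 9.23 and 10.5 CPM (High) and 3.09 and 3.37 CPM (Low). The adjusted p was 0.0776 for Sema4d and 0.0975 for Sema6a by edgeR. All 4 were called higher by DESeq2 (adjusted p of 0.00587 for Sema3f, 0.00613 for Sema3b, 0.0067 for Sema4d and 0.0110 for Sema6a).

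Other members pointed down. Sema4c, a ligand of plexin-B2, was at 25.2 and 19.8 CPM (High) and 55.8 and 46.3 CPM (Low), and Sema6d, a transmembrane class 6 member, at 1.46 and 1.67 CPM (High) and 6.68 and 9.44 CPM (Low). Both missed the edgeR threshold (adjusted p = 0.0693 for Sema4c and 0.0578 for Sema6d), and DESeq2 called both (0.00296 for Sema4c and 6.84e-04 for Sema6d). Sema3g, known from arterial endothelium, had 0 and 2 fragments (High) and 17 and 35 (Low), a ratio of 26.5 (Low over High) with a 95% counting interval of 6.97 to 224 (edgeR, adjusted p = 0.0969). Sema7a, a membrane-anchored semaphorin that binds integrins and plexin-C1, was at 48.5 and 38.6 CPM (High) and 68.4 and 57.5 CPM (Low), with adjusted p = 0.313, while its receptor gene Plxnc1 had at most 1 fragment in a library.

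The order of the semaphorins per length differed between the groups. In the libraries labelled High, Sema3c led High library 1 at 131 FPKM, ahead of Sema3f at 22.9 FPKM, and Sema3f at 26.1 FPKM led High library 2, nearly level with Sema3c at 23.4 FPKM. Sema7a followed them in both, at 15.6 and 12.4 FPKM. Sema7a led in both libraries labelled Low, at 22.1 and 18.6 FPKM, followed by Sema4c (15.4 and 12.8 FPKM) and Sema3f (13.3 and 11.3 FPKM). The summed semaphorin level was 217 and 106 FPKM (High), against 76.0 and 70.5 FPKM (Low).

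**Figure D3:**
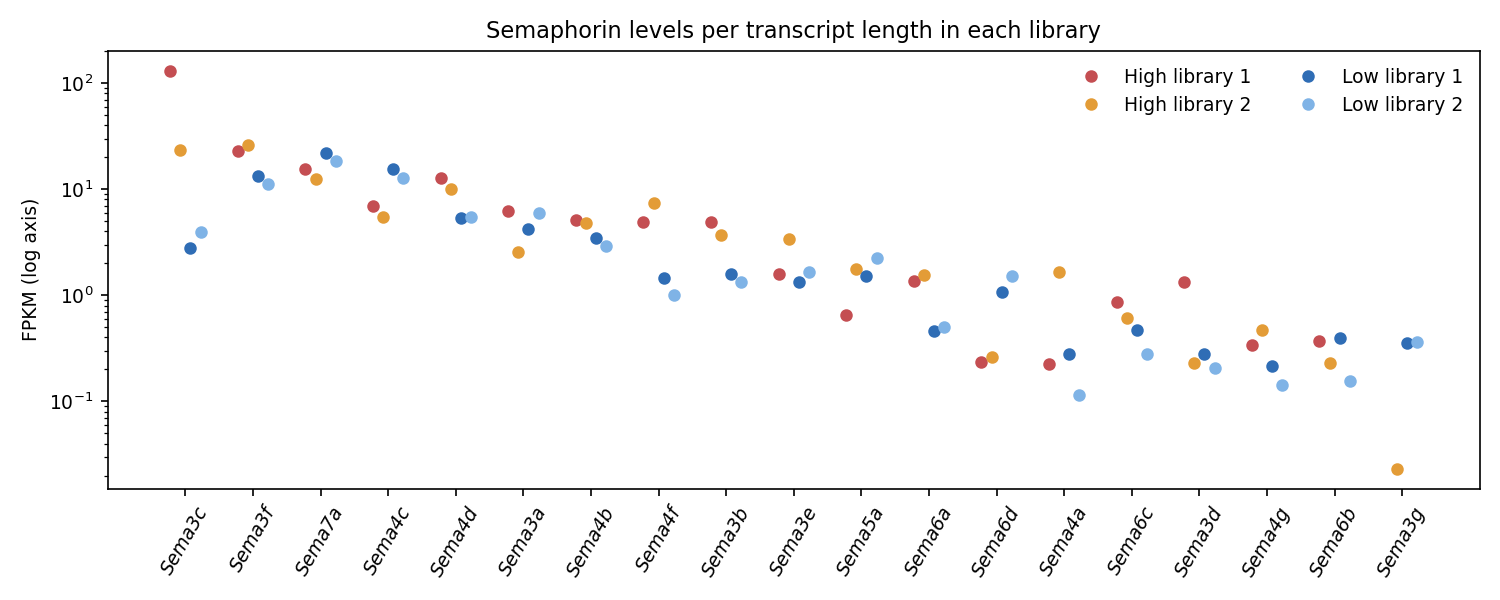
Points give the authors' FPKM of the 19 tested semaphorins on a log axis, 1 point per library, genes ordered by their mean. Sema3c reaches 131 FPKM in High library 1, and the point of Sema3g in High library 1 is missing because its value is 0.

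The remaining semaphorins were not called. Sema3e, the ligand of Plxnd1, was at 10.7 and 23.0 CPM (High) and 8.89 and 11.2 CPM (Low) and was not called (adjusted p = 0.410), beside the 5.61-fold lower Plxnd1. Sema3a, the prototype repellent acting through Nrp1, was at 39.8 and 16.5 CPM (High), on either side of 26.9 and 37.9 CPM (Low). Sema3d, which lies 536 kb from Sema3a on chromosome 5, was at 8.47 and 1.47 CPM (High) and 1.76 and 1.32 CPM (Low). The class 4 member Sema4a went the other way between the High libraries, at 0.643 and 4.80 CPM (High) and 0.808 and 0.329 CPM (Low). The 5 remaining tested semaphorins (Sema4b, Sema4g, Sema5a, Sema6b and Sema6c) had log2 fold changes from -0.63 to 1.21, with adjusted p from 0.310 to 0.937.

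Of the ephrins and Eph receptors, 0 of 7 tested ephrins and 0 of 8 tested receptors passed edgeR's test, where 1.14% (higher) and 1.33% (lower) of all tested genes did, so a list of this size need not hold a called gene. An unadjusted p under 0.05 was seen in 3 of the 15, 2 higher and 1 lower, beside 9.92% (higher) and 8.16% (lower) of all tested genes. DESeq2 called 2 of them (Efna5 and Ephb6) and limma-voom 0. Efna5, a lipid-anchored ephrin, was at 68.9 and 32.4 CPM (High) and 17.7 and 21.3 CPM (Low), a log2 fold change of 1.37 ± 0.39 (SE, adjusted p = 0.133). Ephb6, an Eph receptor without kinase activity, was at 47.9 and 20.5 CPM (High) and 10.7 and 9.26 CPM (Low), with log2 fold change 1.78 ± 0.43 (SE, adjusted p = 0.0943). For both genes the High libraries lay above the Low pair and were over 2-fold apart. Epha3, an A-class receptor, had 7 and 0 fragments (High) and 26 and 69 (Low), with adjusted p = 0.220.

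Most of the ephrin and Eph signal came from the B class. Ephb4, the receptor known from veins and partner of ephrin-B2, was at 36.2 and 52.8 FPKM (High) and 51.2 and 40.9 FPKM (Low), or 47.1% and 63.1% (High) and 61.9% and 59.1% (Low) of the summed Eph receptor FPKM. Efnb2, its ligand, was at 30.7 and 44.7 FPKM (High) and 48.6 and 52.4 FPKM (Low), with log2 fold change -0.41 ± 0.25 (SE, adjusted p = 0.445). Efnb1 was at 20.5 and 42.2 FPKM (High) and 33.2 and 24.6 FPKM (Low). Epha1, expressed in epithelia, was at 11.7 and 8.62 FPKM (High) and 10.6 and 9.47 FPKM (Low). The exons of Epha1 overlap those of Zyx on the other strand and the exons of Ephb4 those of Zan, so their counts are uncertain where strand was not used in counting. Among the A-class ephrins that neighbour each other on chromosome 3, Efna1 was at 9.40 and 7.21 CPM (High) and 8.30 and 7.28 CPM (Low), Efna3 at 1.58 and 4.84 CPM (High) and 2.86 and 2.12 CPM (Low), and Efna4 at 3.80 and 8.14 CPM (High) and 10.1 and 8.16 CPM (Low). The other tested members, Efna2, Epha4, Epha7, Ephb2 and Ephb3, had log2 fold changes from -0.83 to 0.55, with adjusted p from 0.387 to 0.852.

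**Figure D4:**
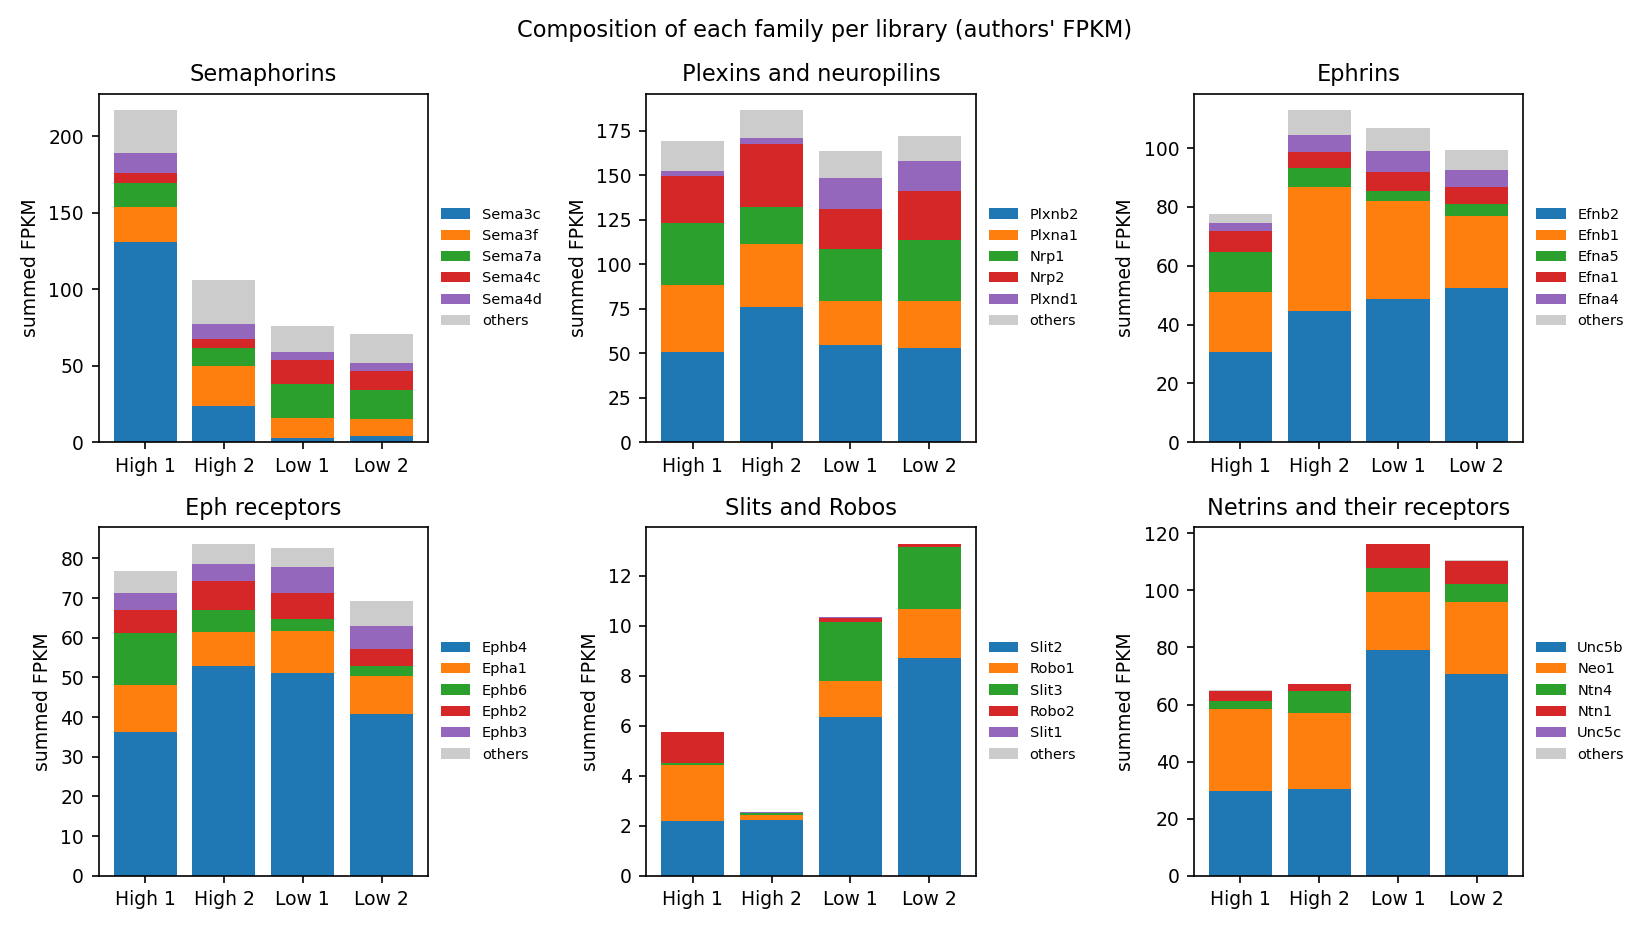
Stacked bars give the authors' FPKM summed over each family in each library, the 5 most abundant genes in colour and the rest in grey, each panel on its own axis from 0. Summed semaphorin FPKM is higher in the libraries labelled High (217 and 106 FPKM against 76.0 and 70.5 FPKM). That of netrins with their receptors is lower (65.1 and 67.3 FPKM against 116 and 111 FPKM). Sema3c makes up 131 and 23.4 FPKM (High) and 2.76 and 3.98 FPKM (Low) of the first sum. Unc5b makes up 29.7 and 30.4 FPKM (High) and 79.2 and 70.5 FPKM (Low) of the second.

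The libraries labelled High differed from each other more than the Low libraries did. Of the 53 tested guidance genes, 21 (39.6%) differed over 2-fold between the High libraries and 3 (5.66%) between the Low libraries, beside 19.0% and 5.45% of all tested genes. Both High libraries lay above both Low libraries for 15 genes and below for 16, against 25.9% (above) and 25.1% (below) of all tested genes. For 13 genes the High libraries fell on opposite sides of the Low pair, as did 16.8% of all tested genes. These 13 were Efna1, Efna3, Efnb1, Epha1, Epha4, Epha7, Ephb4, Nrp1, Plxnb2, Robo1, Robo2, Sema3a and Unc5c. Among genes with at least 10 fragments in a library, 8 were over 4-fold apart between the High libraries. Robo1, Robo2, Sema3c, Sema3d and Unc5c were higher in High library 1 and Sema4a in High library 2. The other 2 were Epha3 (7 and 0 fragments) and Sema3g (0 and 2 fragments), where such a gap rests on a count of 0. The table does not say which clone each High library came from.

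**Figure D5:**
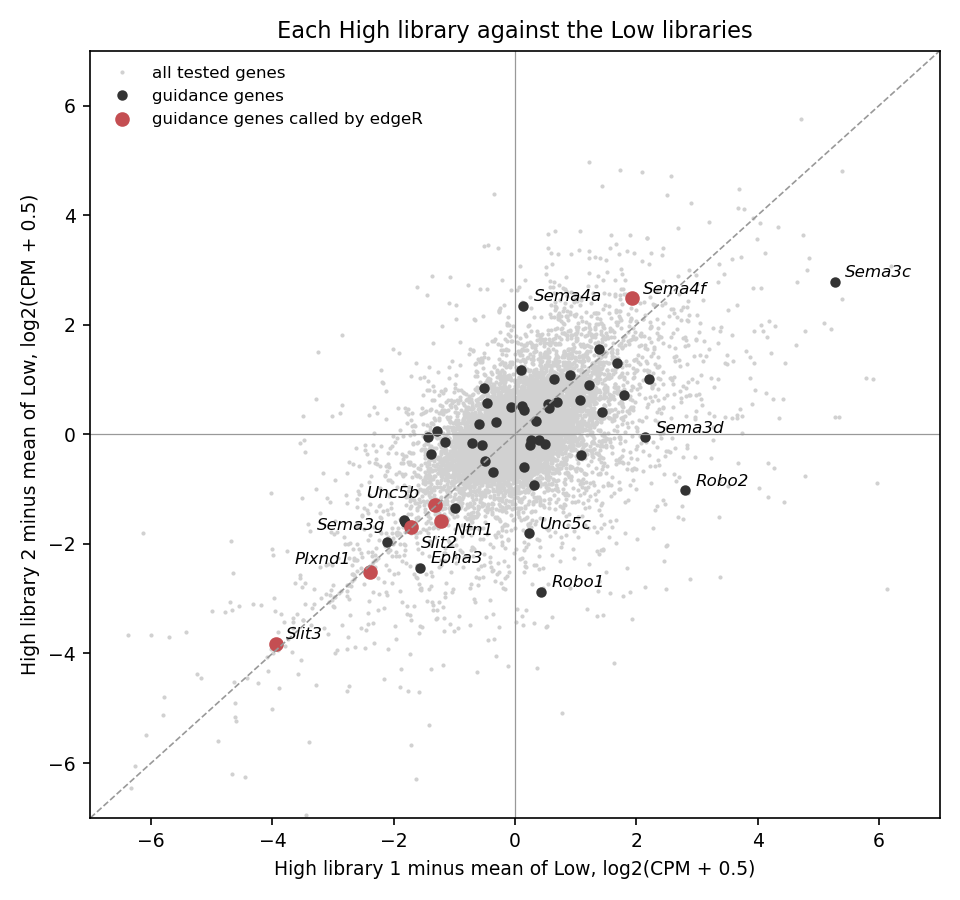
Each point is a tested gene, with its difference from the mean of the Low libraries in High library 1 (horizontal axis) and in High library 2 (vertical axis), both on log2(CPM + 0.5), and the dashed line marks equal differences. The 6 called guidance genes lie near the line, while Robo1, Robo2, Sema3c, Sema3d, Unc5c and Sema4a lie away from it, and 7 genes of other kinds fall outside the axes.

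Genes that act downstream of these receptors, or beside them, were taken from 4 lists of 91 genes in all. Of these 81 were tested, and edgeR called 1 higher and 2 lower, beside 1.14% (higher) and 1.33% (lower) of all tested genes. Their median log2 fold change was -0.07. The lower genes were Mical1, an oxidoreductase that links plexins to actin disassembly, and the adhesion molecule L1cam, a co-receptor for Sema3a. Mical1 was at 1.29 and 1.42 CPM (High) and 31.6 and 25.9 CPM (Low), 21.1-fold lower (log2 fold change -4.40 ± 0.36, SE, adjusted p = 0.0021). L1cam was at 11.9 and 9.81 CPM (High) and 37.4 and 30.8 CPM (Low), 3.14-fold lower (adjusted p = 0.0332). The higher gene was Nrcam, an adhesion molecule of the L1 family. It stood at 14.5 and 9.85 CPM (High) and 0.367 and 0.146 CPM (Low), 50.3-fold higher (edgeR, adjusted p = 0.00757). That fold size rests on 5 and 4 fragments in the Low libraries, against 249 and 242 in the High libraries. By list, 1 of 23 semaphorin and plexin effectors passed (lower), 0 of 22 Eph and ephrin effectors, 0 of 23 Slit, Robo and netrin effectors, and 2 of 18 other guidance ligands and receptors (1 in each direction). DESeq2 called 5 of the 91 genes higher and 8 lower, beside 3.81% (higher) and 3.15% (lower) of all its genes.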

How the data were processed

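RNA of 4 libraries was sequenced after a strand-specific preparation from 500 ng of total RNA each, per the labels' protocols. The authors used cutadapt 1.5, TopHat2 2.0.13 and Cuffdiff 2.2.1 with build mm10, per the submitters' processing notes. Annotation and strand setting: not given in the sources used here. Per the file headers, the deposited table holds, for every gene in each library, an estimated count of fragments, a scaled signal in which the authors multiplied fragments by a factor per library (0.7291 to 1.4646, recovered here), and the authors' FPKM. Of the counts 99.18% were whole within 1e-06. All were rounded, and 6666 genes were at 0 throughout.

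Groups were compared by the two-sided quasi-likelihood test of edgeR 4.0.16 in R 4.3.3 (with limma 3.58.1 and DESeq2 1.42.0 for alternatives), using TMM and robust fitting. Genes passed filterByExpr, whose smallest count is 10, and p-values were adjusted by Benjamini and Hochberg over all 12987 tested genes, with a threshold of 0.05. With 2 degrees of freedom left, the biological coefficient of variation came to 32.2% (42.4% within the High pair, 17.3% within the Low pair). The test was checked on simulated data with the same spread in both groups, so the unequal spread of the High and Low pairs was not covered. Mean ± SD is not shown for pairs of libraries, whose values are given singly. Chi-square per degree of freedom was 123 between the High libraries and 32.4 between the Low libraries, far above sampling noise. Nothing in the labels tells whether the Low duplicates came from separate cultures. The p-values therefore reflect the spread between these 4 samples alone. Within the High pair that spread includes the difference between clones, and within the Low pair it may be technical. An exact permutation test of 2 against 2 cannot go below p = 0.333, and none is given. Intervals cover counting error only.

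Positions are from GENCODE M21 (mm10). None of the 6 called genes shares annotated exons with another gene. Exons are shared on the same strand by 4 of the 69 genes and on the other strand by 15.

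The genes and lists were chosen with earlier results of these data known. Named were called genes, the 12 largest fold changes, the 3 highest FPKM per family, genes over 4-fold apart between the High libraries, genes at an unadjusted p under 0.05 and called effectors, together with relatives given for comparison and chosen after their values were seen. Alternatives were DESeq2, limma-voom, other scalings, no filter, limma on log2(FPKM + 1) and log2(FPKM + 0.1) for a mean FPKM of at least 0.5, a replicate block and each library left out. The numbers of the libraries only name them. A block is thus an arbitrary pairing.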

Additional observations from a re-analysis of the deposited data

How the results depend on the processing

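Besides the counts below, the direction of each of the 6 called guidance genes was the same in all 13 alternatives run. For these genes the CPM values of the groups did not overlap, so leaving out a library could not turn the sign. The unchanged direction is therefore not a test of how robust these genes are. DESeq2 called 8 guidance genes higher and 8 lower, 635 and 526 of all genes, and 5 and 8 effectors. Without a filter on low counts these were 6 higher guidance genes, 437 and 377 of all genes, and 5 and 5 effectors. With limma on log2(FPKM + 1) 3 guidance genes were called lower and 0 effectors higher, and with log2(FPKM + 0.1) these were 3 and 0, with 1 effector lower. Slit2 and Ntn1 were not called by limma on FPKM. The labels share replicate numbers only as names. With the replicate number as a block 2 guidance genes were called higher (Ephb6 added), 223 genes in all higher and 4 effectors lower. Same-numbered libraries deviated oppositely (correlation -0.207), and with the pairing crossed, chosen after seeing the data, edgeR called 0 and 2 guidance genes, 38 and 56 genes in all and 0 and 1 effectors. With 1 library left out, calls ran from 0 to 12 guidance genes higher and 0 to 14 lower, 0 to 1406 and 0 to 1069 of all genes, and 0 to 13 and 0 to 11 effectors, each 0 coming without a Low library. A lone library is then assumed to vary like the other group.

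Signs that turned were those of genes not called, in which the CPM ranges of the groups overlapped. Ephb4 was at 0.00653 with upper-quartile factors, where Ntn1 lost its call. With 1 library left out, the log2 fold change ran from -0.49 to 0.56 for Efnb1, -0.20 to 0.23 for Epha1, -0.34 to 0.21 for Ephb4, -0.59 to 0.14 for Nrp1, -1.37 to 0.0611 for Ntn4, -0.0824 to 0.51 for Plxnb2, -3.31 to 0.41 for Robo1, -2.00 to 3.32 for Robo2, -0.0473 to 2.48 for Sema3d and -3.76 to 0.23 for Unc5c. The cause was not tested. Depth limits what can be said of the 16 untested genes.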
